A study of Mus musculus with 5 samples.

Results

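The collagen chains measured here are the 42 genes whose symbol is Col, a number, the letter a and a number, out of 18820 genes with a probe set of their own on the array. For each gene the probe set with the highest mean over the 5 arrays was used, and the 42 were sorted into 11 fibrillar chains, 6 basement membrane chains of type IV and 25 others. Chains with a mean log2 intensity of at least 5 are called bright and those under 5 dim, which gave 17 bright chains (7 fibrillar, 2 of basement membrane, 8 others) and 25 dim ones (4, 4 and 17). Col7a1 and Col9a3 share their only probe set with another gene and are not among the 42. The samples were whole livers of adult C57Bl/6 mice that received either rat IgG as control (3 arrays) or M279, an antibody that binds CSF1R, the receptor of macrophages and monocytes for the growth factors CSF1 and IL-34 (2 arrays). Every animal had 300 µg of its antibody injected into the peritoneal cavity 3 times a week for 6 weeks, and the question put to the livers was how the antibody altered their gene expression. The labels do not state whether a sample is 1 animal or a pool, and the p-values below therefore rest on the spread among arrays alone, part of which may be technical.

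Collagens are secreted proteins whose chains wind around each other into a stiff helix, and which chains pair decides what the helix builds. Fibrillar collagens of types I, III and V form the cable-like fibres of the liver capsule, the portal tracts and scar, and type IV forms the sheet-like network of basement membranes. The other types decorate fibrils, form beaded filaments or line vessels. In liver, hepatic stellate cells and portal fibroblasts make most of the fibrillar chains, endothelial cells make much of type IV, and macrophages both send signals that switch stellate cells to collagen production and make enzymes that break collagen down.

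The stretches just before the annotated start of 3 fibrillar chain genes are shown because their transcripts had low values on the same treated array, and because Col5a3 is one of the chains with separate groups below. They come from RefSeq (GRCm38.p6), read 5′ to 3′ on the gene's strand, and capitals mark matches on either strand. The motifs searched were the CCAAT box, spelled CCAAT, the GC box, spelled GGGCGG, and the TATA box, spelled TATAAA. For Col5a3 the 50 bases next to the start are left out, since they fall inside the annotated span of the gene. The stretch of Col1a2 is chr6:4505368-4505617 on the plus strand, that of Col3a1 chr1:45311288-45311537 on the plus strand, and that of Col5a3 chr9:20815118-20815317 on the minus strand.
Col1a2: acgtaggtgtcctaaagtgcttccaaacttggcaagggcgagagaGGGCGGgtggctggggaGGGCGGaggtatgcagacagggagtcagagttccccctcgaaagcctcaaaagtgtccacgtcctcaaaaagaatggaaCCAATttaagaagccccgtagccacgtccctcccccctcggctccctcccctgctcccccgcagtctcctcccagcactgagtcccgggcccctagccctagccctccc
Col3a1: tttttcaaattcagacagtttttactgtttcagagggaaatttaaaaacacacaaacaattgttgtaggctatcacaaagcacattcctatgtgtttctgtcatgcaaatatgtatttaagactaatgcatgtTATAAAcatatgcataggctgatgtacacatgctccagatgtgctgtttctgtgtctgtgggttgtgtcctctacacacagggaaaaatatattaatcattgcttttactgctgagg
Col5a3: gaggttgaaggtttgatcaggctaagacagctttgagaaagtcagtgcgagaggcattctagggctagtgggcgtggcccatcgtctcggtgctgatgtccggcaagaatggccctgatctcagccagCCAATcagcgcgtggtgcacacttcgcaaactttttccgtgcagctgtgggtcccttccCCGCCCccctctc
Col1a2 held 1 CCAAT box, whose first base lay 109 bases before the start, and 2 GC boxes at 188 and 205 bases before it. Col5a3 held 1 CCAAT box at 122 bases and 1 GC box at 63 bases, and Col3a1 held neither but had 1 TATA box at 117 bases. The distances for Col5a3 include the 50 bases left out, so they are not counted from the end of the stretch shown. No match overlapped another. Over 32851 promoters of all genes, 33.8% held a CCAAT box in the 250 bases before the start, 32.7% a GC box and 12.4% a TATA box. Of the 17 bright chains 14 had an entry in the promoter table, and 5 of these held a CCAAT box, 8 a GC box and 1 a TATA box. These 14 chains had 16 entries, and a chain was counted if any of its entries held a match. The percentages above count single promoters, so the units differ.

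The array gave an intensity for 35556 probe sets, with medians between 32.5 and 33.9 on the 5 arrays, and the number of arrays limits the precision of every value here. The tissue label held: albumin (Alb) stood at a log2 mean of 13.13 in controls and 13.13 in treated liver. As a measure of the array's floor, 979 olfactory receptor genes had a median log2 level of 2.91, with 95% of them under 4.19, a comparison added after the data were seen. Dim genes of all kinds read higher in treated liver and bright ones lower: the median log2 difference, treated minus control, was 0.17 over the 8250 genes under 5 and -0.10 over the 10570 genes at or above it. The olfactory receptor genes had a median difference of 0.18. Treated replicate 2 correlated less with the controls (Pearson's r of 0.983 to 0.984 over probe sets) than treated replicate 1 did (0.987 to 0.989).

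No collagen chain passed the test between the groups, most bright chains lay somewhat lower in treated liver and most dim ones higher, and so did other genes of the same levels. With limma, none of the 42 passed an adjusted p of 0.05, and the smallest was 0.197. None of the 35556 probe sets passed either (0% higher and 0% lower), while 6559 had an unadjusted p under 0.05. Of the 17 bright chains 13 lay lower in treated liver and 4 higher, with a median log2 difference of -0.20. Over the 2969 genes with a mean from 5 to 6.5, where 15 of the 17 bright chains lie, the median was -0.13. In that band 69.1% of genes lay lower in treated liver. By class the median was -0.20 for the 7 fibrillar chains, -0.16 for the 2 type IV chains and -0.23 for the 8 others. Both treated arrays read under every control for 4 bright chains, Col27a1, Col5a3, Col15a1 and Col4a1, against 32.5% of all genes at that level, and above every control for 1, Col2a1, against 8.74%. Before adjustment 1 bright chain, Col15a1, passed 0.05 on the lower side (background 14.2%) and 0 on the higher (background 2.19%). After quantile normalization, which gives all arrays the same distribution, 0 bright chains lay under every control (19.2% of genes did) and the median over the 17 was -0.06. The type IV median then stood at -0.02. With arrays centred on their medians the count was 2. In whole liver, fewer cells of a type and less RNA per cell cannot be told apart.

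**Figure D1:**
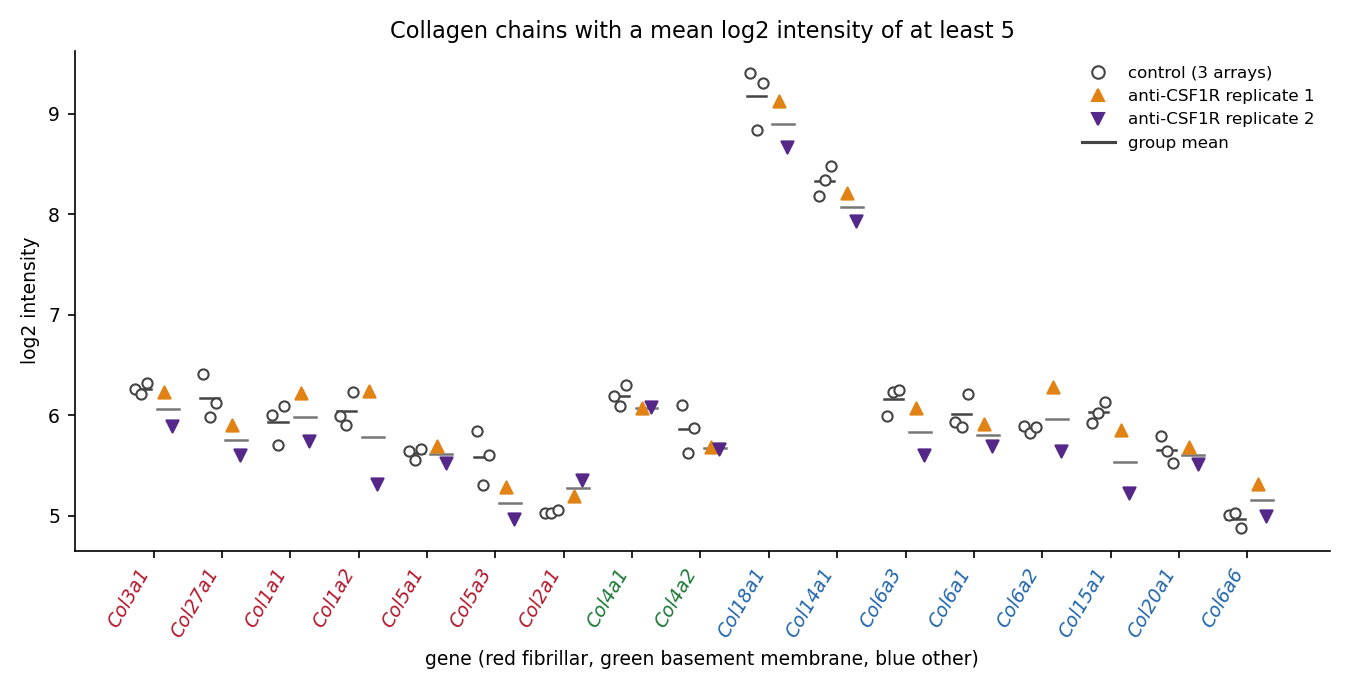
Log2 intensity (y axis) of the 17 bright collagen chains (x axis, by class) on 3 control arrays (open circles) and on anti-CSF1R replicates 1 (orange) and 2 (purple), with bars at the group means. Replicate 2 is the lowest of the 5 arrays for 12 chains, and levels of different genes come from different probes and cannot be compared with each other.

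**Figure D2:**
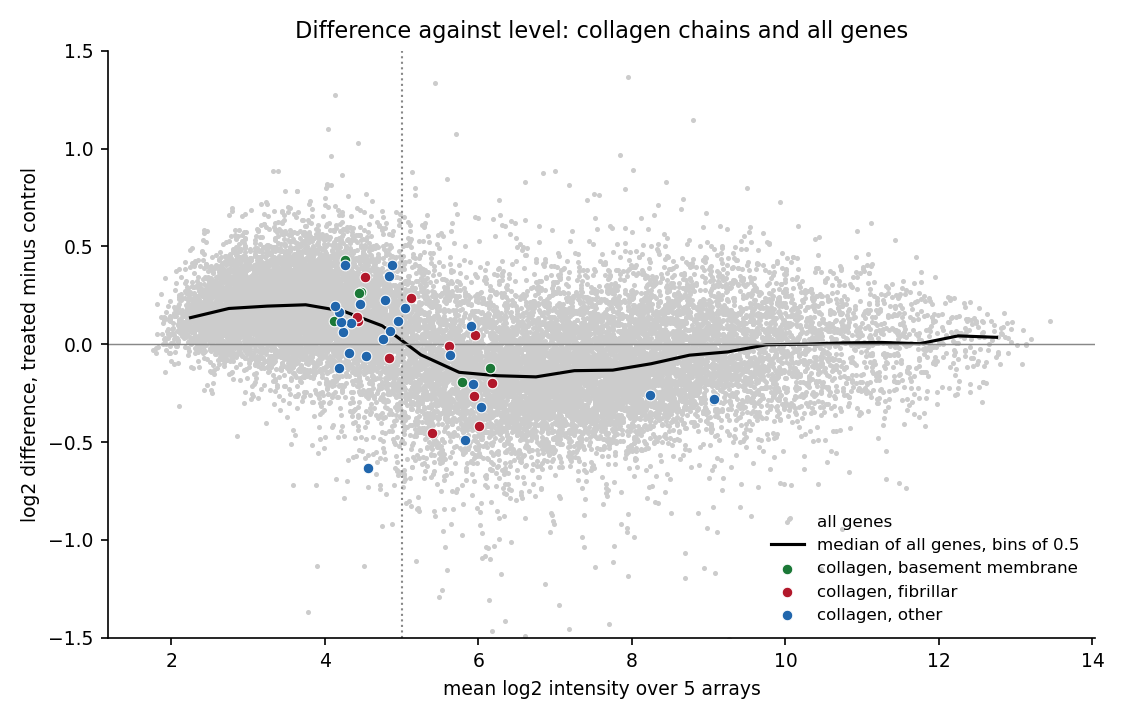
Log2 difference, treated minus control (y axis), against mean log2 intensity over 5 arrays (x axis) for all 18820 genes (grey) and the 42 collagen chains (coloured by class). The black line is the median of all genes in bins of 0.5, the dotted line is the limit of 5, and 7 genes lie past the axis limit of 1.5. The collagen chains sit mostly above 0 left of the limit and below 0 right of it, as the median line does.

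Type I collagen, the main fibre of liver scar, is built from the chains of Col1a1 and Col1a2. Col1a1 read 6.00, 5.71 and 6.09 on the log2 scale in the 3 controls and 6.22 and 5.74 in the treated livers. Treated replicate 1 was the highest of the 5 arrays and replicate 2 lay inside the control range, so the groups overlapped. The difference was 0.05 ± 0.19 (SE, 3 control and 2 treated arrays; limma, adjusted p = 0.892), with a 95% interval from -0.42 to 0.52. Col1a2 read 5.99, 5.91 and 6.23 in controls, 6.24 in treated replicate 1 and 5.32 in treated replicate 2. Its highest and its lowest values were thus those of the treated arrays, and the difference of -0.26 ± 0.28 had the widest error of the 17 bright chains (adjusted p = 0.595). Without treated replicate 2 the difference of Col1a2 was 0.20, and without treated replicate 1 it was -0.72. For Col1a1 the same omissions gave 0.29 and -0.19.

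Type III collagen, made of Col3a1 chains, forms the fine reticular fibres along the sinusoids. It read 6.26, 6.21 and 6.32 in controls, 6.23 in treated replicate 1 and 5.89 in treated replicate 2. Only replicate 2 left the control range, and the difference was -0.20 ± 0.14 (adjusted p = 0.429), or -0.03 without that array. Type V collagen sits inside type I fibrils and limits their width. Its Col5a1 chain read 5.65, 5.55 and 5.66 in controls and 5.69 and 5.53 in treated liver, a difference of -0.01 ± 0.11 with a 95% interval from -0.28 to 0.26. A further, dim probe set of Col5a1 read higher in both treated arrays than in every control, with a difference of 0.30, so the probe sets of Col5a1 disagree. Col5a3, another chain of type V, read 5.84, 5.30 and 5.61 in controls and 5.29 and 4.97 in treated liver. Both treated arrays lay under every control, though replicate 1 by only a little, and the difference was -0.45 ± 0.19 (adjusted p = 0.281).

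Of the fibrillar chains best known from cartilage, Col27a1 read 6.41, 5.98 and 6.12 in controls and 5.91 and 5.61 in treated liver. The groups did not overlap, with a difference of -0.42 ± 0.17 (adjusted p = 0.272), a treated level 0.750 times that of controls. Col2a1, the main collagen of cartilage, stands close to the limit between bright and dim. It read 5.02, 5.02 and 5.05 in controls and 5.19 and 5.35 in treated liver. It was the only bright chain whose treated values both lay above the controls, and the difference was 0.24 ± 0.11 (adjusted p = 0.296). Leaving out 1 array kept the sign of the difference for Col27a1 (-0.56 to -0.27), Col5a3 (-0.61 to -0.30) and Col2a1 (0.16 to 0.32).

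Col4a1 and Col4a2 encode the chains of the type IV network found in nearly all basement membranes, and the genes lie head to head, next to each other. Col4a1 read 6.19, 6.09 and 6.30 in controls and 6.07 and 6.08 in treated liver. Both treated values lay just under the lowest control, and the difference was small, -0.12 ± 0.11 (adjusted p = 0.552). It turned to 0.03 with quantile normalization. Col4a2 read 6.10, 5.62 and 5.87 in controls and 5.68 and 5.66 in treated liver. Its treated arrays lay inside the control range, with a difference of -0.19 ± 0.16 (adjusted p = 0.505). For both type IV chains the treated arrays lay close to each other, with median distances from the control mean of -0.15 and -0.16.

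Type VI collagen forms beaded filaments that tie cells to the matrix around them, and its usual chains are Col6a1, Col6a2 and Col6a3. Col6a1 read 5.93, 5.88 and 6.21 in controls and 5.91 and 5.70 in treated liver, a difference of -0.20 ± 0.15. Col6a2 read 5.89, 5.82 and 5.88 in controls, 6.28 in treated replicate 1 and 5.64 in treated replicate 2. The treated arrays thus lay on opposite sides of a narrow control range, and the difference of 0.10 ± 0.20 was -0.22 without replicate 1 and 0.41 without replicate 2. Col6a3 read 5.99, 6.23 and 6.25 in controls and 6.07 and 5.60 in treated liver, with a difference of -0.32 ± 0.17 that was -0.08 without replicate 2. Col6a6, an alternative chain of type VI, lay just inside the limit at a mean of 5.04, with a difference of 0.18 ± 0.14, and its dimmer probe set differed by -0.04. The adjusted p of these 4 chains lay between 0.349 and 0.789.

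Type XV and type XVIII collagens are found in basement membrane zones and carry long sugar chains, and a fragment of the Col18a1 protein is endostatin, an inhibitor of vessel growth. Col15a1 read 5.93, 6.03 and 6.13 in controls and 5.85 and 5.23 in treated liver. The groups did not overlap, but most of the gap came from replicate 2, and the difference of -0.49 ± 0.20 (adjusted p = 0.267) was -0.18 without it and -0.80 without replicate 1. Col18a1 read 9.40, 8.84 and 9.30 in controls and 9.13 and 8.67 in treated liver. The controls alone spanned more than the difference of -0.28 ± 0.22 (adjusted p = 0.483), which was -0.05 without replicate 2. Col14a1 encodes type XIV collagen, which binds to the surface of fibrils. It read 8.18, 8.34 and 8.49 in controls and 8.21 and 7.94 in treated liver, with overlapping groups and a difference of -0.26 ± 0.15 (adjusted p = 0.356), or -0.12 without replicate 2. Col20a1, of the same fibril-associated class, had a difference of -0.05 ± 0.13, and its values on all 5 arrays lay between 5.52 and 5.79.

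The treated livers differed from each other for most bright chains, and replicate 2 was the lower one for 15 of the 17. Treated replicate 2 read under every control for 13 of the 17 chains, against 48.3% of all genes at that level, and above every control for 1, against 27.5%. Treated replicate 1 read under every control for 4 of the 17, against 47.5% of genes, and above every control for 6, against 14.1%. Replicate 2 held the lowest of all 5 values for 12 of the 17, against 38.2% of genes. Among the 2969 genes from 5 to 6.5, replicate 2 was lowest for 841, under every control for 1286 and above every control for 680. In that band replicate 1 read under every control for 1528 genes and above every control for 422. The median distance from the control mean was -0.05 over the 17 chains on replicate 1 and -0.31 on replicate 2, while over all bright genes it was -0.09 and -0.10. Over the genes from 5 to 6.5, where 15 of the 17 chains lie, it was -0.15 on replicate 1 and -0.10 on replicate 2. By class it was 0.07 and -0.37 for fibrillar chains, -0.15 and -0.16 for type IV and -0.07 and -0.35 for the others. For 3 chains, Col1a2, Col6a2 and Col5a1, replicate 1 lay above every control and replicate 2 under every control. The count of 4 bright chains with both treated arrays under the controls was 13 when replicate 1 was left out and 4 when replicate 2 was. Without control replicate 1 it was 6 (42.5% of genes) and without control replicate 2 it was 8 (38.6%). The count of 1 on the higher side became 6 without replicate 2. With 1 liver sample on each side, the difference between the treated livers has no replicate check.

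**Figure D3:**
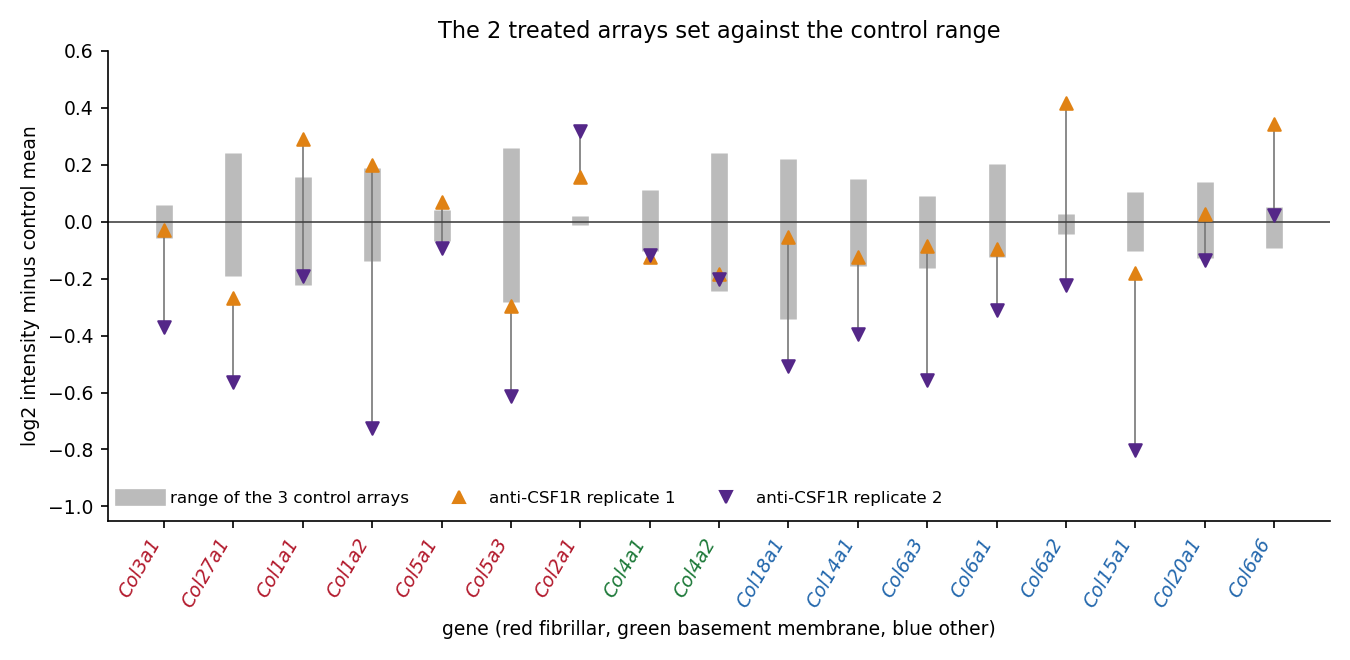
Log2 intensity minus the control mean (y axis) of the 17 bright chains (x axis, by class) for anti-CSF1R replicates 1 (orange) and 2 (purple), joined by a line, over the range of the 3 control arrays (grey bar). Replicate 2 lies under the control range for 13 chains and replicate 1 for 4, and for 3 chains, Col1a2, Col6a2 and, by a small margin, Col5a1, the treated livers stand on opposite sides of it.

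The 25 dim chains had means between 4.12 and 4.96, and 21 of them lay above the level of 4.19 that held 95% of olfactory receptor genes. The dim chains nearest the limit were Col13a1, a transmembrane collagen (4.96), Col22a1, a collagen of tissue junctions (4.87), and Col26a1 (4.85), beside Col6a6 at 5.04 and Col2a1 at 5.13 just above it. Of the 25, 20 lay higher in treated liver and 5 lower, and the median difference was 0.12, beside 0.14 over the 2846 genes with a mean from 4 to 5, the band that holds all 25. Of those 2846 genes 2153 lay higher and 693 lower. Both treated arrays read above every control for 12 dim chains, against 37.3% of genes in that band and 46.1% of all dim genes. Both read under every control for 2, Col8a1 and Col9a2, against 5.76% of the band and 2.84% of all dim genes. Before adjustment 3 dim chains passed 0.05 on the higher side (Col22a1, Col24a1 and Col4a6, against 19.8% of all dim genes) and 1, Col8a1, on the lower (against 0.982%). In the band from 4 to 5, 504 of the 2846 genes passed on the higher side and 65 on the lower. All 4 dim type IV chains, Col4a3, Col4a4, Col4a5 and Col4a6, which are best known from kidney and other special basement membranes, lay above every control on both treated arrays, with differences between 0.12 and 0.43. Their differences lay on the other side of 0 from those of Col4a1 and Col4a2 and on the same side as those of most dim genes.

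Col8a1, a short-chain collagen of vessel walls, read 4.98, 4.68 and 4.77 in controls and 3.91 and 4.45 in treated liver. It had the largest difference of all 42 chains, -0.63 ± 0.19 (limma, adjusted p = 0.212), and it lay on the other side of 0 from most dim genes, with replicate 1 the lower of the treated arrays. Leaving out 1 array gave -0.90 to -0.36 for Col8a1. Col22a1 read 4.66, 4.68 and 4.78 in controls and 5.15 and 5.07 in treated liver, a difference of 0.40 ± 0.11 (adjusted p = 0.197). Col13a1 and Col26a1 differed by 0.12 ± 0.11 and 0.07 ± 0.15. With quantile normalization the median over the dim chains was 0.07. Under that scaling 8 dim chains lay above every control, against 26.8% of genes from 4 to 5, and 3 under, against 8.89%.

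Genes that make, bind or break down collagen were taken from 7 lists, of whose 102 genes 92 were measured and 66 were bright. None of the 92 passed an adjusted p of 0.05 in limma, while 18 had an unadjusted p under 0.05, where 18.3% of all genes did, which is close to the share among the 92. Both treated arrays read under every control for 23 of the 66 bright genes and above for 3, where the background is 32.5% and 8.74%. For the enzymes and chaperones that modify and fold procollagen in the endoplasmic reticulum, 12 of 15 bright genes lay lower, 7 of them with separate groups, with a median of -0.23. Of all bright genes 66.0% lay lower and 32.5% had separate groups on that side. P4ha1, the catalytic subunit of prolyl 4-hydroxylase that stabilises the helix, read 7.99, 8.21 and 7.75 in controls and 7.42 and 7.06 in treated liver. Its difference of -0.74 ± 0.18 was the largest in size among the bright genes of the 7 lists (adjusted p = 0.192). Fkbp14, a folding enzyme for procollagen, was at -0.53 ± 0.16 and P3h2, a prolyl 3-hydroxylase, at -0.34 ± 0.14, while Serpinh1, the chaperone dedicated to collagen, was at 0.09 ± 0.12 with overlapping groups.

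Among genes of propeptide removal and cross-linking the median of 7 bright genes was -0.03. Loxl4, a cross-linking oxidase, read 5.73, 5.72 and 5.78 in controls and 5.33 and 5.08 in treated liver, a difference of -0.54 ± 0.12 (adjusted p = 0.192). Bmp1, which removes the propeptides of fibrillar chains, was at -0.14 ± 0.13, Pcolce2, which enhances that step, at -0.29 ± 0.17 and the dim Lox at 0.31 ± 0.17. Of genes of collagen breakdown 4 of 13 were bright, with a median of -0.14. Mmp14, a membrane-bound collagenase, was at -0.40 ± 0.16 with separate groups. Mmp2, a gelatinase, read 7.15 in treated replicate 1 and 6.18 in replicate 2, above and under all controls (6.78, 6.85 and 6.93), as for Col6a2, and its difference was -0.18 ± 0.28. Timp3, an inhibitor of these enzymes, was at -0.10 ± 0.17, and the dim Mmp13, a collagenase, and Timp1, an inhibitor, were at -0.35 ± 0.40 and 0.20 ± 0.14. Mmp13 read 5.33 in control replicate 2 and 4.15 or less in the other controls.

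The cell surface receptors for collagen had a median of -0.21 over 5 bright genes. Ddr1, a receptor kinase that collagen activates, read 5.37, 5.38 and 5.28 in controls and 5.69 and 5.72 in treated liver, a difference of 0.36 ± 0.10 (adjusted p = 0.205). Itga1 and Itgb1, which join as an integrin that binds collagen, were at -0.30 ± 0.16 and -0.29 ± 0.16, and Ddr2, a receptor of fibrillar collagen, was at -0.09 ± 0.14. Laminins, nidogen and proteoglycans that share the basement membrane with type IV collagen had a median of -0.22, with 11 of 12 bright genes lower and 6 with separate groups, where 66.0% of all bright genes lay lower and 32.5% had separate groups on that side. They included the laminin chain Lamc1 (-0.50 ± 0.11), the linker protein Nid1 (-0.40 ± 0.16) and agrin (Agrn, -0.36 ± 0.14), each with an adjusted p of 0.192 or more. Proteins that bind fibrils had a median of 0.06 over 9 bright genes, with Tnxb, a tenascin, at -0.70 ± 0.16, Lum, which governs fibril spacing, at 0.35 ± 0.11 and fibronectin (Fn1) at -0.22 ± 0.15. Of the growth factors that drive collagen production and their mediators, 10 of 14 bright genes lay lower, 6 with separate groups, with a median of -0.13, to be read beside the same shares and the median of -0.10 over all bright genes. Pdgfa read 7.96 to 8.03 in controls and 7.51 and 7.48 in treated liver, a difference of -0.50 ± 0.10 (adjusted p = 0.188). Pdgfc was at -0.48 ± 0.11 and Pdgfd at -0.39 ± 0.13. Tgfb1, the best known of these signals, was at -0.02 ± 0.15.

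**Figure D4:**
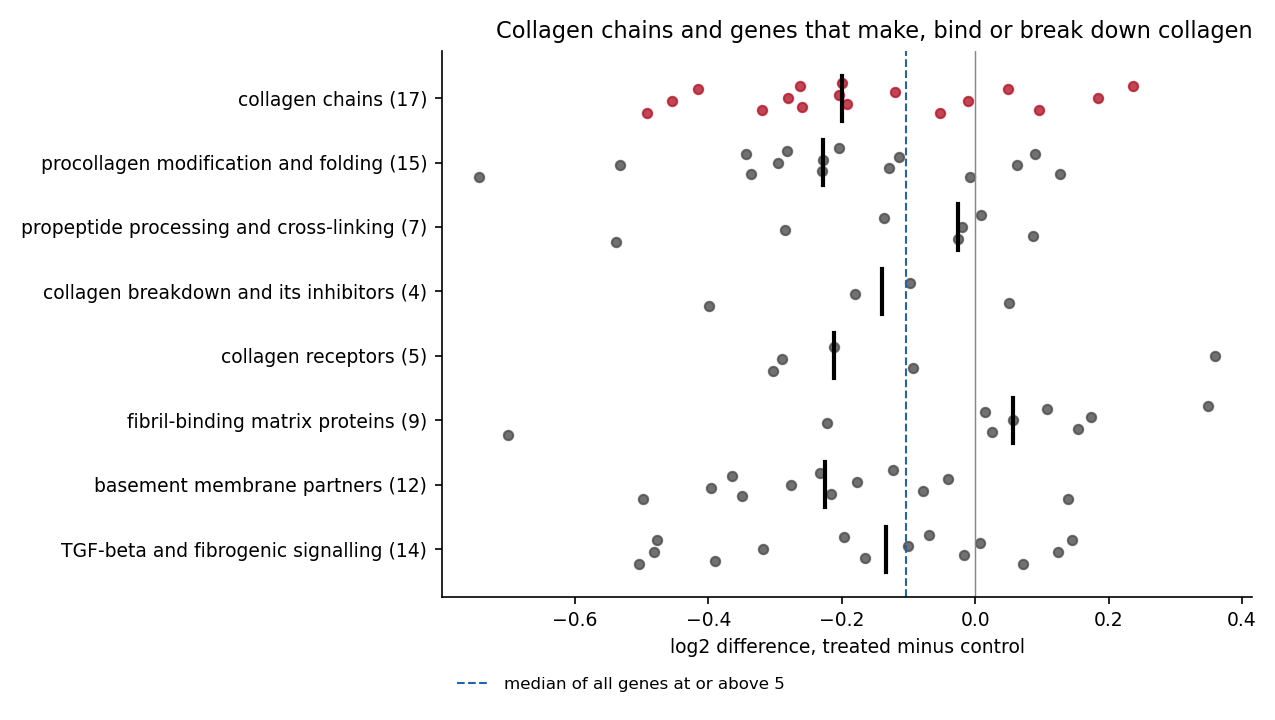
Log2 difference, treated minus control (x axis), of each bright gene (points) of the collagen chains and of 7 lists of genes that make, bind or break down collagen (rows, number of bright genes in brackets). Black bars are the medians of each row, which run from -0.23 to 0.06, and the dashed line is the median of all genes at or above 5, -0.10.

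The summed markers of stellate cells and of myofibroblasts lay slightly higher in treated liver, where most bright collagen chains lay lower. For stellate cells 11 of 13 markers were measured and 10 were bright, with a median difference of 0.13 over the bright ones. Of these 10, 6 lay higher and 4 lower, where 66.0% of all bright genes lay lower. Both treated arrays read above every control for 4 of the 10, against 8.74% of bright genes, and under every control for 1, against 32.5%. The 11 stellate markers summed to 1984 to 2323 in controls and 2324 to 2330 in treated liver, with Lrat, the enzyme that stores vitamin A, at 0.36 ± 0.12 and Reln at -0.02 ± 0.14. Markers of myofibroblasts and smooth muscle summed to 314 to 333 in controls and 342 to 363 in treated liver, with 6 of 6 measured, 3 bright, and Acta2 at 0.18 ± 0.11 and Myl9 at 0.07 ± 0.11. Markers of portal fibroblasts and mesothelium, 8 of 8 measured and 6 bright, summed to 272 to 322 in controls and 269 to 461 in treated liver, with Thy1 at 0.07 ± 0.20 and Entpd2 at 0.01 ± 0.12. On replicate 1 the median of these 6 stood 0.36 above the control mean and on replicate 2 it stood at -0.25, the same order as for the fibrillar chains, and their part in the result was not tested. The list was not uniform. Chosen after their values were seen, Upk3b (1.49 and -0.16 on replicates 1 and 2), Gpm6a (1.15 and -0.66) and Cd34 (0.68 and -0.46) had that order, of which Upk3b and Gpm6a mark mesothelium. Thy1 had the opposite order (-0.22 and 0.36), and Entpd2 stood near the control mean on both arrays. Sinusoidal endothelial markers (10 of 10 measured) summed to 5589 to 5871 in controls and 6063 to 6271 in treated liver, with a median difference of -0.01, Clec4g at 0.31 ± 0.10 and Dnase1l3 at 0.06 ± 0.11. Clec4g is the brightest of that list and weighs most in the sum, while 5 of the 10 markers lay higher and 5 lower.

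Cholangiocyte markers, of which 6 of 7 were measured and 4 were bright, summed to 772 to 994 in controls and 467 to 652 in treated liver, with Cdh1, which hepatocytes also express, at -0.86 ± 0.21 and Sox9 at -0.51 ± 0.15. Cdh1 is by far the brightest of the list and Sox9 the next, so the sum follows them. The keratins and Epcam, also chosen after their values were seen, had overlapping groups: Krt19 was at 0.20 ± 0.26, Krt7 at -0.05 ± 0.29 and the dim Epcam at 0.08 ± 0.15. For both keratins replicate 1 lay above every control and replicate 2 under every control. From the control mean, Krt19 stood at 0.63 on replicate 1 and -0.23 on replicate 2, and Krt7 at 0.47 and -0.58. Cdh1 (-0.62 and -1.11) and Sox9 (-0.37 and -0.65) were lower on both arrays. The median of the 4 bright markers stood at -0.61 on replicate 2 and at 0.05 on replicate 1. Kupffer cell and macrophage markers (9 of 9 measured) summed to 3432 to 3950 in controls and 2666 to 3474 in treated liver. Their median stood at -0.56 on replicate 1 and -0.10 on replicate 2, the opposite order to the bright collagen chains, with Clec4f at -0.25 ± 0.14 and Vsig4 at -0.12 ± 0.17. Of the 9 bright macrophage markers 8 lay lower, against 66.0% of bright genes, and 4 lay under every control on both treated arrays, against 32.5%. Those 4 were Ctss (-0.60), Mpeg1 (-0.565), Csf1r (-0.56) and Adgre1 (-0.48). The marker that did not lie lower was Cd5l, at 0.03. Hepatocyte markers (8 of 8 measured) summed to 57931 to 60411 in controls and 58586 to 59234 in treated liver and had a median of 0.01, with Apoa1 at -0.01 ± 0.10. Lymphocyte markers (6 of 7 measured, 5 bright) summed to 225 to 275 in controls and 202 to 304 in treated liver and had a median of -0.01, with Cd79b at 0.06 ± 0.20 and Nkg7 at 0.33 ± 0.28. Neutrophil markers (4 of 5 measured) were all dim and summed to 68.1 to 71.7 in controls and 80.1 to 83.4 in treated liver, with S100a8 at 0.23 ± 0.12 and S100a9 at 0.31 ± 0.10. Dim genes of all kinds read higher too: the median difference was 0.14 over genes from 4 to 5, where S100a8 and S100a9 lie, and 0.19 over those under 4. Of the neutrophil markers under 4, Ngp was at -0.05 and Camp at 0.33. None of these lists held a gene past an adjusted p of 0.05, and no marker is listed at 0. The part of these cells in the values of the collagen chains was not tested.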

How the data were processed

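Liver RNA was amplified as cDNA with a NuGEN kit and labelled with biotin, per the labels' protocols, and the authors deposited 1 intensity per probe set and array on a linear scale. Per the submitters' processing notes the software was Affymetrix Expression Console 1.1. How it corrected background, summarised probes and normalized arrays is not given in the sources used here, so a scaling that draws arrays together could have hidden shared differences.

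Intensities were put on the log2 scale without a pseudocount. Probe sets were named through the platform annotation: 21218 had 1 symbol, 1881 several and 12457 were not listed. The test was limma 3.58.1 (R 4.3.3; lmFit and eBayes, two-sided, 3 residual and 3.03 prior degrees of freedom) over all 35556 probe sets, with Benjamini-Hochberg adjustment and a threshold of 0.05. The steps were tested on simulated data. Lists are described by counts and medians. The collagen members, gene lists and limits were chosen with earlier results of these data known. Named are every bright chain, the 3 dim chains nearest the limit, dim chains with separate groups and a difference of at least 0.5, 3 bright genes of smallest p and 8 fixed genes from the pathway lists, and the 2 markers of highest mean in each marker list; other dim chains and markers named were chosen after their values were seen. Alternatives were quantile normalization, median centring, other probe sets, filters, a trend and robust variance model, weighted arrays, a block for the replicate number and leaving out each array. Python 3.11.15 and matplotlib 3.10.9 made the plots.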

Additional observations from a re-analysis of the deposited data

How the results depend on the processing

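No collagen chain and no gene of the 7 pathway lists passed an adjusted p of 0.05 under quantile normalization, median centring, 1 probe set per gene, the filter on dim probe sets, the trend and robust variance model, array weights, the replicate block or the omission of any 1 array (counts of 0 to 0), and at an unadjusted p under 0.05 there were 5 and 18. With quantile normalization the median was -0.0415 for fibrillar, -0.0195 for type IV and -0.12 for other chains, the number of bright chains under every control was 0, and the differences of Col4a1 (0.0269), Col20a1 (0.0661) and Col5a1 (0.11) turned positive. With centring that number was 2 (26.9% of genes), and Col5a1 was at 0.0266. The deviations of same-numbered control and treated arrays from their group means correlated at 0.0268 and 0.0325. With 2 treated arrays the deviations of 1 mirror those of the other, so these values cannot decide whether the shared numbers pair the samples. With the replicate block the median of other chains was -0.15, and Col5a1 was at 0.0089. With the mean over its probe sets Col5a1 was at 0.14. With a limit of 4 the medians were -0.0112 for fibrillar, 0.19 for type IV and 0.0671 for other chains. All 42 chains pass that limit, and 13 of them lay above every control (14.8% of genes at that limit) and 6 under (26.8%). These shares are not matched to the chains by level. Of the 42 chains 25 lie from 4 to 5, where 37.3% of genes lay above every control and 5.76% under. With a limit of 6 the fibrillar median was -0.31, and 2 chains lay under every control (33.5% of genes) and 0 above (8.35%). Leaving out each array gave medians of -0.37 to 0.0705 for fibrillar, -0.24 to -0.0981 for type IV and -0.35 to -0.0688 for other chains, 4 to 13 bright chains under every control and 1 to 6 above. Differences that changed sign ran from -0.19 to 0.29 for Col1a1, -0.72 to 0.20 for Col1a2, -0.22 to 0.41 for Col6a2, -0.13 to 0.0282 for Col20a1 and -0.0928 to 0.0705 for Col5a1. Of the 17 bright chains 11 kept their sign throughout. The causes were not tested beyond these settings.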

Other observations

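The probe set that Col7a1, the anchoring fibril collagen of skin, shares with Mir711 read 4.92, 4.87 and 4.84 in controls and 5.12 and 4.92 in treated liver. The probe set that Col9a3, a chain of the cartilage collagen type IX, shares with Tcfl5 read 5.31, 4.83 and 4.78 in controls and 4.78 and 4.79 in treated liver. Of the 4 collagen genes with a further probe set of their own, Col6a5 read higher on average in treated liver on both, by 0.35 and 0.20, and Col20a1 lower on both, by -0.05 and -0.02.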
